A study of Mus musculus with 12 samples.

Results

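Nfkbia, Nfkbiz, Nfkbid and Tnfaip3 encode inhibitors of the transcription factor NF-kB, and their mRNA and ribosome footprints were followed in RAW264 cells, a mouse macrophage line. The 4 genes were taken by name from the 9621 genes listed for each of 12 libraries, and all 4 were listed and passed the filter on low values in both assays. Their Ensembl identifiers are ENSMUSG00000021025 (Nfkbia), ENSMUSG00000035356 (Nfkbiz), ENSMUSG00000036931 (Nfkbid) and ENSMUSG00000019850 (Tnfaip3). Cells received 100 ng/ml LPS (lipopolysaccharide, which comes from the outer membrane of bacteria) plus 10 µM dexamethasone (DEX, a synthetic glucocorticoid) for 30 min, received 100 ng/ml LPS alone for 30 min, or were left without either (basal). All cells had been in culture for 24 h and all received cycloheximide, which holds ribosomes on mRNA, at 100 µg/ml shortly ahead of harvest. Fragments shielded by ribosomes (RPF, or footprints) and polyadenylated mRNA were each sequenced in 2 replicates per treatment, which the labels call independent biological replicates. No group received DEX without LPS, and the RNA comes from 1 cell line.

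In resting macrophages NF-kB dimers are held in the cytoplasm by IkB proteins. LPS acts through the receptor TLR4 and the IKK complex, IkBα is phosphorylated and degraded, and the released dimers switch on inflammatory genes together with several of their own inhibitors, which closes a negative feedback loop. Nfkbia encodes IkBα, which rebinds NF-kB and carries it out of the nucleus. Nfkbiz and Nfkbid encode the nuclear IkB proteins IkBζ and IkBNS, which act on subsets of NF-kB target genes, IkBζ also as a coactivator. Tnfaip3 encodes A20, a ubiquitin-editing enzyme that acts upstream, on the signalling complexes that activate IKK. Glucocorticoids such as DEX act through a nuclear receptor that binds DNA and restrains inflammatory transcription.

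The upstream sequences of the genes are shown because NF-kB binds its targets at short kB sites. The RefSeq promoter windows used (build GRCm38.p6) covered 6 start sites for 3 of the 4 genes, 1 for Nfkbia, 2 for Tnfaip3 and 3 for Nfkbid. Nfkbiz had no window among them and was not searched. The 250 bases before the start of Nfkbia (chr12:55492648-55492897, minus strand) and before the first start of Tnfaip3 (chr10:19015411-19015660, minus strand) are printed 5′ to 3′ on the strand of the gene. Capitals mark matches on either strand to 1 form of the kB consensus, GGRNNYYYCC (R is A or G, Y is C or T, N is any base). Stretches that fit only another form are not marked.
Nfkbia: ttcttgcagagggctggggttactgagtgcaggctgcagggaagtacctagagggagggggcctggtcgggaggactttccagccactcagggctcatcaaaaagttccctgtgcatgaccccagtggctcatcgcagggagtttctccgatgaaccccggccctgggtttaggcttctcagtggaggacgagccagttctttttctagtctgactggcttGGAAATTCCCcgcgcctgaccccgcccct
Tnfaip3: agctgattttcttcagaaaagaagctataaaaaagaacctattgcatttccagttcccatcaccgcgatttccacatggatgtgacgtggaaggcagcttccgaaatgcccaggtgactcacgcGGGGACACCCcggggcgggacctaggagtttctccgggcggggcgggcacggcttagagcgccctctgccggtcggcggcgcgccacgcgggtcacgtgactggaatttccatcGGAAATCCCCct

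The Nfkbia match lies 29 to 20 bases before the start, and the Tnfaip3 matches lie 126 to 117 and 12 to 3 bases before it. In Nfkbid, 3 matches fell before the second listed start (chromosome 7, plus strand), shown here with the bases around each.
Nfkbid, 226 to 217 bases before the start: gccccgccctGGGACTTCCCagagcaccac
Nfkbid, 181 to 172 bases before the start: gggccgaacaGGAATTCCCCgtgcgcgggg
Nfkbid, 76 to 67 bases before the start: actgggaggtGGAAGATTCCcttgcgttag

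Of the 32851 RefSeq windows of 250 bases, 16.8% held at least 1 match to this form of the kB consensus and 3.08% held 2 or more. The other Tnfaip3 start and the other Nfkbid starts had no match. An AP-1 motif (TGANTCA, both strands) was found 136 to 130 bases before the first Tnfaip3 start and in 6.75% of all windows, and it does not overlap the kB matches. The glucocorticoid response element (its consensus, both strands), to which the DEX-bound receptor can bind, was in 0 of the 6 windows and in 0.387% of all windows. A match describes letters in a window, and whether any factor was bound was not measured here.

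The mRNA libraries held 1475120 to 2529666 reads and the RPF libraries 821946 to 1833560, the lowest being both LPS footprint libraries. Values are CPM, read counts of a gene scaled to the total of its library, and 3 reads were worth 1.19 to 3.65 CPM, a limit that covers counting error only. In the libraries the 4 genes had 7 to 2746 reads, and the lowest were footprints of Nfkbid and Nfkbiz in basal cells. Of 13 macrophage markers 12 were listed, and their summed level was 6856 to 7716 CPM in mRNA and 9336 to 11109 CPM in footprints, with none at 0. Replicate 1 of the basal mRNA libraries was unlike the rest, with rank correlations to the other mRNA libraries of 0.781 to 0.831, against 0.894 to 0.98 among the others. Of 9 epithelial markers 2 were listed, Krt7 and Ddr1, and their sum was 2032 CPM in that library and 2.17 to 6.72 CPM in the other mRNA libraries. In footprints that sum was 17.5 to 33.3 CPM in LPS + DEX cells, 48.2 to 75.4 in LPS cells and 24.3 to 33.6 in basal cells. Of 8 fibroblast markers only Col3a1 was listed, with footprints of 128 to 134 CPM in LPS + DEX cells, 60.8 to 65.1 in LPS cells and 115 to 142 in basal cells, and mRNA of 61.6 to 75.1 CPM in LPS + DEX cells, 46.7 to 51.4 in LPS cells and 3.39 to 16.2 in basal cells. Of 8 lymphocyte markers 0 were listed. The part of these other cell type markers in the results was not tested. Leaving out basal replicate 1 changed none of the mRNA calls of the 4 inhibitors for LPS or LPS + DEX against basal.

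**Figure D1:**
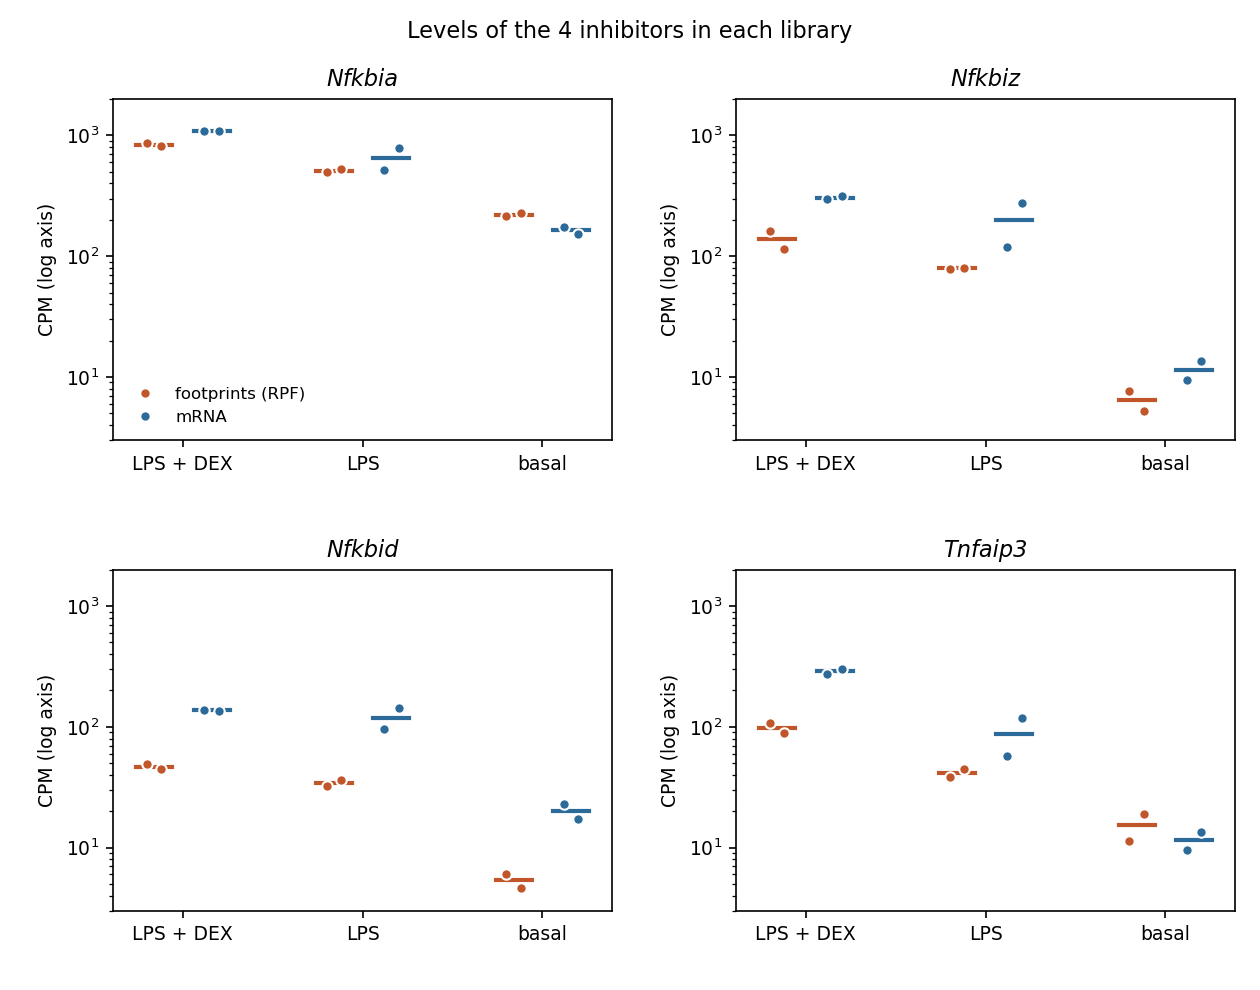
CPM (log axis) of the 4 inhibitor genes in every library, footprints in orange and mRNA in blue, with a point for each of 2 replicates and a line at their mean. Basal cells were lowest for all 4 genes in both assays, and the 2 LPS libraries of mRNA lie furthest apart for Nfkbiz and Tnfaip3.

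LPS raised all 4 inhibitors within 30 min, at the level of mRNA and of footprints. Nfkbiz had the largest log2 fold change in both assays and the IkBα gene Nfkbia the smallest, except that Tnfaip3 was the smallest in footprints without RPF basal replicate 1 (1.09), and differences between the genes were not tested. This comparison asks which inhibitor genes respond to LPS itself. Because these are bulk samples, fewer cells that express a gene and less RNA per cell cannot be told apart.

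Nfkbia mRNA stood at 514 and 793 CPM in LPS cells, against 174 and 152 CPM in basal cells. Footprints of Nfkbia stood at 500.4 and 523 CPM in LPS cells, against 217 and 226 CPM in basal cells. Both LPS libraries lay above both basal libraries in each assay. The log2 fold change, computed as all others here on CPM + 1, was 1.96 ± 0.20 (SE) for mRNA (limma, adjusted p = 0.0129) and 1.21 ± 0.09 for footprints (adjusted p = 1.91e-06).

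Nfkbiz, the gene of the nuclear protein IkBζ, had only 8 to 25 reads a library without LPS. Its mRNA stood at 120.0 and 276 CPM in LPS cells, against 9.49 and 13.5 CPM in basal cells. Its footprints stood at 78.4 and 80.3 CPM in LPS cells, against 7.63 and 5.26 CPM in basal cells. The groups were separate in both assays, although the 2 LPS mRNA libraries differed more than 2-fold from each other. The log2 fold change was 3.89 ± 0.36 for mRNA (limma, adjusted p = 0.0124) and 3.45 ± 0.22 for footprints (adjusted p = 4.95e-07), which is 17.2-fold and 12.3-fold in mean CPM.

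Nfkbid, the gene of the other nuclear inhibitor, IkBNS, had 95.7 and 143 CPM of mRNA in LPS cells, against 23.0 and 17.3 CPM in basal cells. Its footprints stood at 32.6 and 36.5 CPM in LPS cells, against 6.11 and 4.60 CPM in basal cells. No LPS library overlapped a basal one. The log2 fold change was 2.49 ± 0.23 for mRNA (limma, adjusted p = 0.0124) and 2.49 ± 0.27 for footprints (adjusted p = 7.02e-05).

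Tnfaip3, which encodes A20, had 57.3 and 117 CPM of mRNA in LPS cells, against 9.49 and 13.5 CPM in basal cells. Footprints of Tnfaip3 stood at 38.6 and 45.0 CPM in LPS cells, against 11.4 and 19.1 CPM in basal cells. Again the groups did not overlap, and the footprint change was the smaller of the pair. The log2 fold change was 2.75 ± 0.33 for mRNA (limma, adjusted p = 0.0184) and 1.43 ± 0.24 for footprints (adjusted p = 0.00216).

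In mRNA, 4 of 4 inhibitors passed the test as higher in LPS cells, where 9.03% of 9277 tested genes did, and 4 of 4 had separate groups, where 46.7% of genes lay higher with no overlap. In footprints, 4 of 4 passed, against 3.3% of 8847 genes, and 4 of 4 were separate, against 20.5%. Without mRNA LPS replicate 2 the mRNA calls of Nfkbia, Nfkbid and Tnfaip3 were lost, and only Nfkbiz of the 4 still passed. The LPS group then has no replicate, and nearly all calls over all genes were lost as well. It also has none without mRNA LPS replicate 1, yet the inhibitors kept their mRNA calls there. Without mRNA LPS replicate 2 the log2 fold changes of Nfkbia, Nfkbid and Tnfaip3 were 1.65, 2.20 and 2.24. The median mRNA change of all genes was 0.26 in this comparison, and median-of-ratios scaling moved it to 0.01 with the 4 mRNA calls unchanged (log2 fold changes 1.70 to 3.64).

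**Figure D2:**
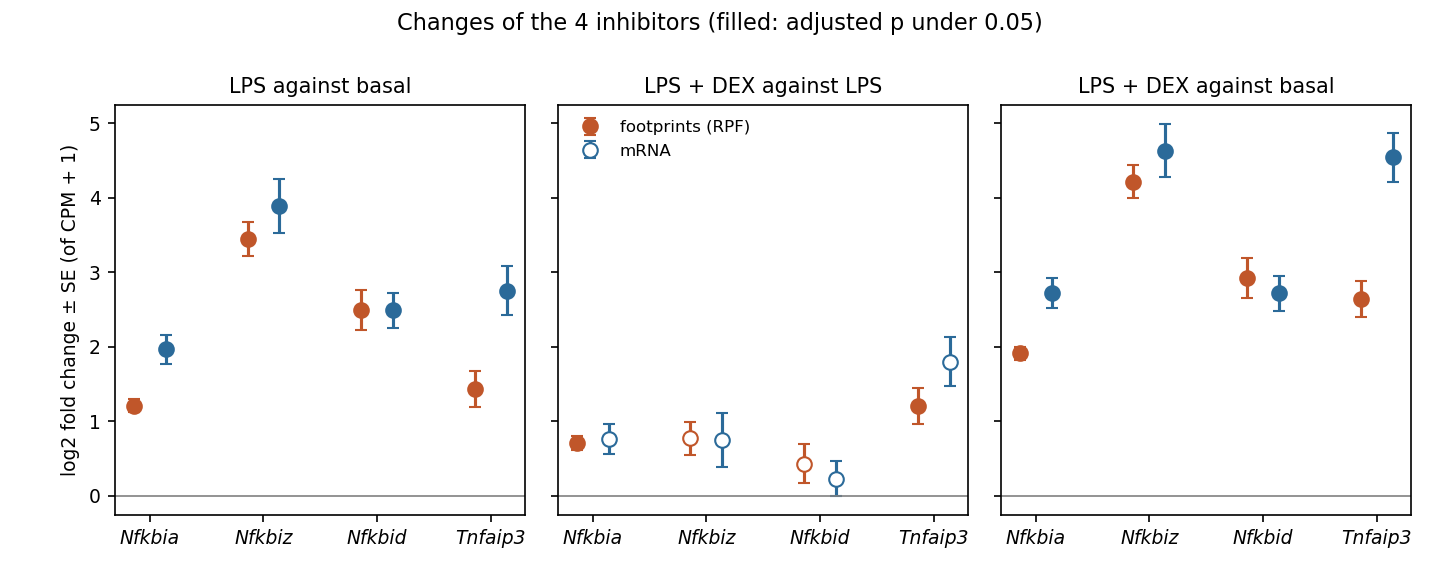
Log2 fold change of CPM + 1 with its SE for each inhibitor, footprints in orange and mRNA in blue, in the 3 treatment comparisons. Filled points have an adjusted p under 0.05, which in the comparison of LPS + DEX with LPS applies only to the footprints of Nfkbia and Tnfaip3.

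Adding DEX to LPS did not lower any of the 4 inhibitors in the mean. Footprints of Nfkbia and Tnfaip3 were higher in LPS + DEX cells than in LPS cells, and those of Nfkbiz and Nfkbid did not pass the test. The question here is what the glucocorticoid changes in cells that also receive LPS.

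Footprints of Nfkbia stood at 859 and 813 CPM in LPS + DEX cells, against 500.4 and 523 CPM in LPS cells. For Tnfaip3 they stood at 107 and 88.9 CPM in LPS + DEX cells, against 38.6 and 45.0 CPM in LPS cells. In both genes the 2 DEX libraries lay well above the 2 LPS libraries. Nfkbia footprints rose by a log2 fold change of 0.71 ± 0.09 (limma, adjusted p = 0.000269) and Tnfaip3 footprints by 1.21 ± 0.24 (adjusted p = 0.00755), or 1.63-fold and 2.34-fold in mean CPM.

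Footprints of Nfkbiz stood at 161 and 115 CPM in LPS + DEX cells, against 78.4 and 80.3 CPM in LPS cells. Those of Nfkbid stood at 49.0 and 44.7 CPM in LPS + DEX cells, against 32.6 and 36.5 CPM in LPS cells. The groups did not overlap in either gene, but neither change passed. For Nfkbiz the log2 fold change was 0.77 ± 0.22 (95% interval 0.29 to 1.25; limma, adjusted p = 0.0559), and for Nfkbid it was 0.43 ± 0.27 (95% interval -0.14 to 1.0; adjusted p = 0.394).

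Thus 2 of 4 inhibitors passed as higher in footprints, where 3.14% of all genes did, and 4 of 4 had separate groups, where 26.9% lay higher with no overlap. The Nfkbia call held in 15 of 15 alternative fits. The Tnfaip3 call held in 11 of 15 and was lost without RPF LPS replicate 1 (adjusted p = 0.0571), without RPF LPS+DEX replicate 1 (0.163) or 2 (0.105), and with no filter on low values (0.061), while Nfkbiz passed in 6 of 15 (adjusted p between 0.00204 and 0.473 over the alternatives).

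In mRNA, Tnfaip3 was the inhibitor with the largest difference. It had 273 and 302 CPM in LPS + DEX cells, against 57.3 and 117 CPM in LPS cells, and Nfkbia had 1086 and 1077 CPM in LPS + DEX cells, against 514 and 793 CPM in LPS cells. Nfkbiz had 295 and 317 CPM in LPS + DEX cells, against 120.0 and 276 CPM in LPS cells. The DEX libraries were close to each other in these genes, the LPS libraries were spread, and the groups did not overlap. Nfkbid had 139 and 135 CPM in LPS + DEX cells, against 95.7 and 143 CPM in LPS cells, so that its groups did overlap.

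The mRNA log2 fold changes of LPS + DEX over LPS were 1.80 ± 0.33 for Tnfaip3 (95% interval 1.03 to 2.56), 0.76 ± 0.20 for Nfkbia (0.30 to 1.22), 0.74 ± 0.36 for Nfkbiz (-0.09 to 1.58) and 0.23 ± 0.23 for Nfkbid (-0.32 to 0.77). In limma 0 of the 4 genes passed (adjusted p = 1 for each), as did 0% of all genes, with 183 genes at an unadjusted p under 0.05 and 0 genes called by limma-voom. The glucocorticoid targets Dusp1 (3.25 ± 0.47) and Per1 (1.97 ± 0.32) did not pass in mRNA either. An mRNA change that did not pass here therefore says little. The groups of 3 of the 4 inhibitors were separate, where 18.2% of all genes lay higher with no overlap. Tnfaip3 did pass when only the LPS + DEX and LPS libraries were fitted (adjusted p = 0.00172), without mRNA basal replicate 1 (0.00347) and without mRNA basal replicate 2 (0.00282), with the same fold change in each.

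Against basal cells, LPS + DEX cells had all 4 inhibitors higher in both assays. These values share the basal libraries with the LPS comparison and the LPS + DEX libraries with the DEX comparison, and are set beside them without a further test. The mRNA log2 fold changes were 4.63 ± 0.36 for Nfkbiz, 4.55 ± 0.33 for Tnfaip3, 2.72 ± 0.20 for Nfkbia and 2.72 ± 0.23 for Nfkbid, with limma adjusted p between 0.00194 and 0.00305. Here 4 of 4 passed, against 18.5% of all genes, and 4 of 4 were separate, against 47.5%. All 4 mRNA calls were lost without mRNA LPS+DEX replicate 1. The LPS + DEX group then has no replicate, and nearly all calls over all genes were lost as well. It also has none without mRNA LPS+DEX replicate 2, yet the inhibitors kept their mRNA calls there. Without mRNA LPS+DEX replicate 1 the log2 fold changes were 4.69 for Nfkbiz, 4.62 for Tnfaip3, 2.72 for Nfkbia and 2.70 for Nfkbid.

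In footprints of LPS + DEX cells over basal cells the log2 fold changes were 4.22 ± 0.22 for Nfkbiz, 2.92 ± 0.27 for Nfkbid, 2.64 ± 0.24 for Tnfaip3 and 1.91 ± 0.09 for Nfkbia. Again 4 of 4 passed in limma, against 1.77% of all genes, and 4 of 4 were separate, against 20.8%. Each of these footprint calls held in 15 of 15 alternative fits. The order of the treatments by mean was thus LPS + DEX, LPS, basal for each gene in each assay, and the step between LPS + DEX and LPS passed only for the footprints of Nfkbia and Tnfaip3. In mRNA that step passed for 0% of all genes, so its absence there says little.

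Footprints were next set against mRNA for each inhibitor. The ratio of mean footprint CPM to mean mRNA CPM, a relative measure of translational efficiency (TE), depends for each gene on how much of its transcript is coding, so it is compared here within a gene. For Nfkbia it was 0.773 in LPS + DEX cells, 0.783 in LPS cells and 1.36 in basal cells. For Tnfaip3 it was 0.341 in LPS + DEX cells, 0.479 in LPS cells and 1.33 in basal cells. Both ratios were lower with LPS than without it, whether or not DEX was added. The basal Tnfaip3 ratio rests on 14 and 25 mRNA reads and on 15 and 29 footprint reads. The possible pairings of libraries gave Tnfaip3 ratios between 0.846 and 2.01 in basal cells. They gave at most 0.785 in LPS cells and 0.392 in LPS + DEX cells.

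The 2 nuclear inhibitors had ratios under 1 in every treatment. For Nfkbiz the ratio was 0.451 in LPS + DEX cells, 0.401 in LPS cells and 0.56 in basal cells. For Nfkbid it was 0.342 in LPS + DEX cells, 0.290 in LPS cells and 0.265 in basal cells. The possible pairings of libraries gave Nfkbiz ratios between 0.389 and 0.804 in basal cells, where the reads are fewest, so these 3 treatments overlap.

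**Figure D3:**
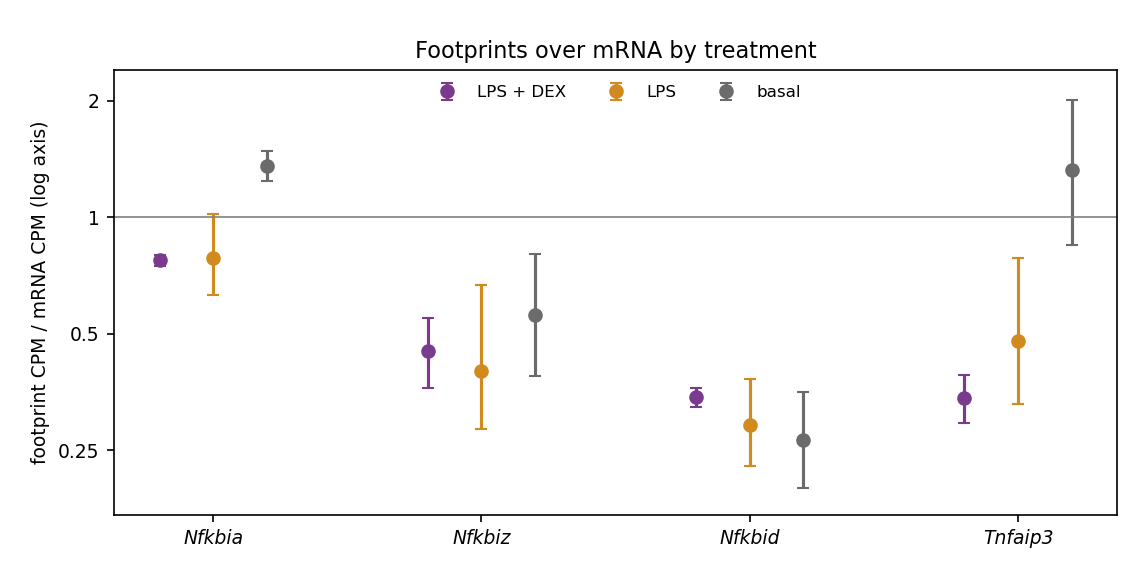
Ratio of footprint CPM to mRNA CPM (log axis) for each inhibitor in LPS + DEX, LPS and basal cells. Points are ratios of means over 2 libraries and bars span the 4 possible pairings of a footprint with an mRNA library; Nfkbia and Tnfaip3 have their highest ratios, 1.36 and 1.33, in basal cells.

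A change of TE is what remains of the footprint change once the mRNA change is subtracted, and it was tested as an interaction term over the 12 libraries. For LPS over basal, Nfkbia had a TE change of -0.76 ± 0.22 (limma, adjusted p = 0.0361) and passed as lower. Tnfaip3 had -1.32 ± 0.44 (95% interval -2.27 to -0.37, adjusted p = 0.0559), Nfkbiz had -0.44 ± 0.45 (-1.42 to 0.54, adjusted p = 0.534) and Nfkbid had 8e-04 ± 0.33 (-0.71 to 0.71, adjusted p = 0.999), none of which passed. That is 1 of 4 lower, where 13.6% of 9412 genes were, and the median TE change of all genes was -0.34.

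For LPS + DEX over basal, Tnfaip3 had a TE change of -1.90 ± 0.44 (limma, adjusted p = 0.0138) and Nfkbia one of -0.81 ± 0.22 (adjusted p = 0.0297). Nfkbiz had -0.41 ± 0.45 (-1.40 to 0.57) and Nfkbid 0.21 ± 0.33 (-0.51 to 0.92), and neither passed. So 2 of 4 were lower, against 12.2% of all genes, with a median of -0.34 over all genes. With median-of-ratios scaling these medians moved to -0.06 for LPS and -0.02 for LPS + DEX, the Nfkbia calls were lost (-0.46, adjusted p = 0.199, and -0.48, adjusted p = 0.203), and Tnfaip3 in LPS + DEX cells still passed (-1.59, adjusted p = 0.0351). Over all alternatives the Nfkbia calls held in 10 of 21 fits for LPS and 13 of 21 for LPS + DEX, and the Tnfaip3 call in 18 of 21. The Tnfaip3 call was lost without RPF basal replicate 2 (adjusted p = 0.0607), without RPF LPS+DEX replicate 2 (0.0582) and in limma-voom (0.0744). The Nfkbia call was lost in 8 of 12 fits without 1 library for LPS, in each case with an adjusted p of at most 0.109, and in 6 of 12 for LPS + DEX, with at most 0.0965.

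Between LPS + DEX and LPS no inhibitor had a TE change that passed, in either direction, and 0.0425% of all genes were lower. The values were -0.59 for Tnfaip3 (95% interval -1.54 to 0.36), -0.05 for Nfkbia (-0.54 to 0.43), 0.03 for Nfkbiz (-0.96 to 1.01) and 0.20 for Nfkbid (-0.51 to 0.92).

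Within a treatment, footprints were set against mRNA directly. Since this ratio also depends on how much of a transcript is coding, a negative value alone does not show poor translation. In LPS + DEX cells footprints were lower than mRNA for Tnfaip3 (log2 ratio -1.55 ± 0.31, limma, adjusted p = 0.00116), Nfkbid (-1.53, adjusted p = 0.000146) and Nfkbiz (-1.16, adjusted p = 0.0089), but not to the threshold for Nfkbia (-0.37, adjusted p = 0.0652). In LPS cells the same 3 genes passed as lower, with Nfkbid at -1.73, Nfkbiz at -1.19 and Tnfaip3 at -0.96, and Nfkbia, whose assays overlapped, had -0.32 (adjusted p = 0.107). In basal cells Nfkbid was lower in footprints (-1.73, adjusted p = 4.5e-05) and Nfkbia was higher (0.44, adjusted p = 0.0331), while Nfkbiz had -0.75 (adjusted p = 0.0681) and Tnfaip3 0.36 (adjusted p = 0.358). Of all genes 27.2% were lower in footprints in LPS + DEX cells, 27.1% in LPS cells and 17.3% in basal cells, and 33.4% were higher in basal cells. The Nfkbid calls held in 21 of 21 alternative fits in each treatment. In limma-voom the Tnfaip3 call in LPS cells and the Nfkbia call in basal cells were lost (adjusted p = 0.0538 and 0.111). Without mRNA LPS replicate 2 the Nfkbiz and Tnfaip3 calls in LPS cells were lost (adjusted p = 0.121 and 0.266), without RPF LPS replicate 1 that of Tnfaip3 (0.106), without RPF LPS+DEX replicate 2 that of Nfkbiz in LPS + DEX cells (0.0906), and with median-of-ratios scaling that of Nfkbia in basal cells (0.398), as also without mRNA basal replicate 2 (0.136) or RPF basal replicate 1 (0.0836) or 2 (0.125). Of the values that did not pass, Nfkbia in LPS + DEX cells passed in 7 of 21 alternative fits (adjusted p between 0.00902 and 0.224), Nfkbiz in basal cells in 4 of 21 (0.0183 to 0.57), Nfkbia in LPS cells in 1 of 21 (0.00164 to 0.976) and Tnfaip3 in basal cells in 0 of 21 (0.138 to 0.982).

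The 4 inhibitors kept unequal shares of their joint output. Their summed footprint level was 1176 and 1061 CPM in LPS + DEX cells, 649.9 and 685 CPM in LPS cells and 242 and 255 CPM in basal cells. Nfkbia held 73.0% and 76.6% of that sum in LPS + DEX cells, 77.0% and 76.4% in LPS cells and 89.6% and 88.6% in basal cells. Tnfaip3 held 9.10% and 8.38% in LPS + DEX cells, 5.94% and 6.57% in LPS cells and 4.73% and 7.49% in basal cells. These are shares of reads, not of molecules, since footprint reads per gene also grow with the length of the coding part of the transcript.

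The rest of the pathway and a list of glucocorticoid targets were read together, as 7 lists of 96 genes without the 4 inhibitors. Of these genes 77 were tested in mRNA and 75 in footprints. For LPS over basal 14 of 77 rose and 0 fell in mRNA, where 9.03% of all genes rose and 1.68% fell, with a median change of 0.48 against 0.26 over all genes. In footprints 12 of 75 rose and 2 fell, where 3.3% of all genes rose and 4.32% fell, with a median of -0.03 against -0.07. The 4 tested members of the other IkB family, Nfkbib, Nfkbie, Bcl3 and Nfkbil1, gave 0 calls in any treatment comparison of either assay. Their mRNA changes for LPS over basal lay between 0.11 (Nfkbil1) and 0.82 (Nfkbie, which encodes IkBε). Of 18 tested A20 partners and other brakes, Zfp36, whose product destabilises cytokine mRNAs, rose with LPS by 3.45 ± 0.45 in mRNA (adjusted p = 0.0188) and by 3.22 ± 0.38 in footprints (adjusted p = 0.000152), and Traf3, an adaptor, rose in mRNA by 1.07 ± 0.24 (adjusted p = 0.0357).

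Among 5 NF-kB subunits, Rela, the main activating subunit, rose by 1.42 ± 0.19 in mRNA with LPS (limma, adjusted p = 0.0188) and fell by 0.75 ± 0.21 in footprints (adjusted p = 0.0462). The list of target cytokines and effectors had 7 of 15 higher in mRNA and 8 of 15 higher in footprints. The chemokine gene Cxcl2 rose by 4.88 ± 0.52 in mRNA (adjusted p = 0.015) and by 4.95 ± 0.23 in footprints (adjusted p = 1.61e-08). Tnf, which encodes the cytokine TNF, rose by 3.78 ± 0.21 in mRNA (adjusted p = 0.00145) and by 4.55 ± 0.13 in footprints (adjusted p = 2.65e-11).

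With DEX added, footprints of 2 of the 75 genes in the lists rose over LPS alone and 5 fell. Of all genes 3.14% rose and 3.55% fell, so the share of list genes that rose was near that of all genes. Dusp1, a phosphatase that switches off MAP kinases and the 1 of 7 tested glucocorticoid targets that passed, rose by 3.59 ± 0.23 (limma, adjusted p = 3.68e-07), and Cd14, the LPS co-receptor, rose by 0.55 ± 0.10 (adjusted p = 0.00397). Of 15 target cytokines and effectors 0 rose and 4 fell, to be read against the same 3.14% and 3.55% of all genes, with a median change of -0.08 against 0.02 over all genes. The log2 fold changes were -3.18 ± 0.43 for Nos2, the inducible nitric oxide synthase (adjusted p = 0.000425), -0.83 ± 0.23 for Bcl2a1b, which opposes cell death (adjusted p = 0.044), -0.45 ± 0.13 for Tnf (adjusted p = 0.0485) and -0.38 ± 0.10 for Sod2, a mitochondrial superoxide dismutase (adjusted p = 0.0391). In mRNA the same 15 genes had a median change of 0.15 against 0.02 over all genes, with 0 calls. Footprints of Rnf31, a subunit of a linear ubiquitin ligase, fell by 1.75 ± 0.18 (adjusted p = 5.03e-05). With LPS alone they lay 2.82 ± 0.18 above basal (adjusted p = 4.95e-07), and with LPS + DEX 1.07 ± 0.18 above basal (adjusted p = 0.00322). For LPS + DEX over LPS, footprints of Nfkbia and Tnfaip3 passed as higher, and whether they differ from the cytokine genes was not tested.

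**Figure D4:**
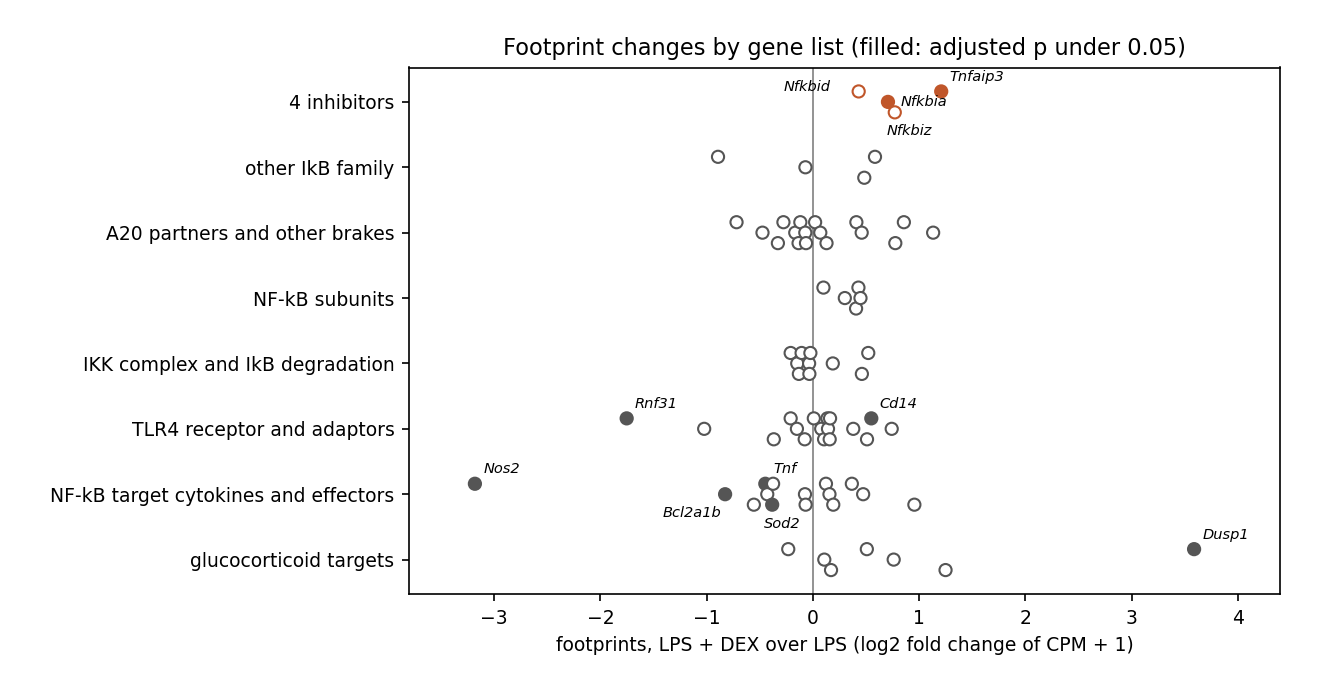
Footprint log2 fold change of LPS + DEX over LPS (CPM + 1) for each inhibitor, at the top in orange, and for each tested gene of the 7 gene lists, in grey. Filled points have an adjusted p under 0.05 and are named; the inhibitors lie between 0.43 and 1.21, Dusp1 at 3.59 and Nos2 at -3.18.

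Likeness of pattern was measured as Pearson's r over the 12 libraries, on log2(CPM + 1) centred within each assay, against 8693 genes. It is a description, since the libraries share treatments, depth and scaling. Nfkbia was most like Cited2 (0.983), the AP-1 subunit gene Jun (0.982) and the chemokine receptor-like gene Ccrl2 (0.982), and Tnfaip3 most like Ccrl2 (0.982), Cited2 (0.979) and the nuclear lamin gene Lmnb1 (0.975). The size of a change does not enter r. For LPS + DEX over basal Lmnb1 changed by 0.63 in mRNA and 0.28 in footprints, against 4.55 and 2.64 for Tnfaip3. Nfkbiz was most like the immediate early genes Btg2 and Ier2 and like Cxcl2 (0.984, 0.984 and 0.983), and Nfkbid most like Btg2, Zfp36 and Tnf (0.982, 0.981 and 0.981). Among the inhibitors r was highest between Nfkbid and Nfkbiz (0.988) and lowest between Nfkbid and Tnfaip3 (0.89).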

How the data were processed

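The deposited values are CPM (read counts scaled to the library total) plus 1 per Ensembl gene and library, a unit read from the values. After subtracting 1, 100% of the values checked are whole multiples of 1 read (tolerance 0.1 read). The highest values were left out of that check. Per the labels' protocols, libraries were made for Ion Torrent sequencing; aligner, build, annotation and strand setting: not given in the sources used here. Each listed gene reaches a value above 16 in some library. Symbols matched 9521 of 9621 identifiers. In RefSeq none of the 4 inhibitor genes overlaps another gene. limma 3.58.1 (R 4.3.3) was run with a mean-variance trend on log2(CPM + 1), over 6 libraries per assay and over 12 for TE, on genes with at least 10 reads at median depth in 2 libraries and 15 in total. Two-sided p-values were adjusted by Benjamini-Hochberg over all genes tested, at 0.05. The inhibitors and gene lists were chosen with earlier results of these data known. Named genes are the inhibitors, the 3 genes most like each, and up to 4 called genes per list with the largest change. With 2 libraries a group, an exact permutation test could not pass, so none is given. Scripts were tested on simulated data, where the TE interaction missed most of the changes put in and the footprint test few, so a TE change that did not pass says little. Alternatives were the added constant, scaling, filter, library weights, replicate block, only the groups compared, leaving out each library and, chosen after seeing the data, limma-voom on the reads recovered from CPM.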

Additional observations from a re-analysis of the deposited data

Results flagged for a closer look

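In 3 results the footprint change of an inhibitor differed from its mRNA change by the interaction test in limma. Nfkbia had a TE change of -0.76 (log2) for LPS over basal, with footprints up by 1.21 and mRNA up by 1.96. For LPS + DEX over basal Nfkbia had -0.81, with footprints up by 1.91 and mRNA up by 2.72. Tnfaip3 had -1.90 for LPS + DEX over basal, with footprints up by 2.64 and mRNA up by 4.55. The median TE change of all genes was -0.34 in each of these comparisons. The mRNA library of basal replicate 1, with its high Krt7 and Ddr1 levels, enters all 3 values, which without it were -0.86, -0.91 and -1.67. Over all alternatives the 3 calls held, in the order given, in 10, 13 and 18 of 21 fits. Median-of-ratios scaling lost both Nfkbia calls (-0.46 and -0.48), and limma-voom lost all 3.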

How the results depend on the processing

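Over the alternatives, 783 of the values for single inhibitors kept direction and side of the threshold, 43 lost the call, 26 gained it and 12 changed sign. Leaving out each library in turn, the number of inhibitors called ranged from 1 to 4 (mRNA, LPS over basal), 0 to 1 (mRNA, LPS + DEX over LPS), 0 to 4 (mRNA, LPS + DEX over basal), 1 to 3 (footprints, LPS + DEX over LPS), 0 to 2 (TE, LPS and LPS + DEX over basal), 1 to 4 (footprints over mRNA, LPS) and 1 to 3 (basal). Sign changes under these fits ranged from -0.060 to 0.51 (Nfkbid mRNA, LPS + DEX over LPS), -0.29 to 0.29 (Nfkbid TE) and -1.04 to 0.16 (Nfkbiz TE) for LPS over basal, and -0.37 to 0.26 (Nfkbia TE), -0.081 to 0.49 (Nfkbid TE) and -0.57 to 0.62 (Nfkbiz TE) for LPS + DEX over LPS; Nfkbid TE for LPS over basal was -0.12 with log2(CPM + 2). With only the groups compared, 1 inhibitor was called in mRNA for LPS + DEX over LPS and 0 in TE for LPS over basal. With no filter 1 was called in footprints for LPS + DEX over LPS, and with the stricter filter 2 in TE for LPS over basal. Median-of-ratios scaling gave 0 in TE for LPS and 1 for LPS + DEX over basal. limma-voom gave 0 and 0 there, and 1 for footprints over mRNA in basal cells. The cause of these shifts was not tested.

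Deviations of same-numbered libraries correlated between -0.165 and 0.095 over 15 pairs of groups, with 0 over 0.1. No pairing by replicate number was seen, but with 2 libraries a group this cannot exclude shared cultures. With the replicate block, 2 inhibitors were called in TE for LPS over basal (Tnfaip3 as well, adjusted p = 0.0338) and 3 in footprints for LPS + DEX over LPS (Nfkbiz as well, adjusted p = 0.0406). Median-of-ratios scaling changed the split of all genes in mRNA to 184 higher and 317 lower for LPS over basal (838 and 156 without it) and to 720 and 826 for LPS + DEX over basal (1714 and 392), and in TE to 558 and 502 (290 and 1277) and to 507 and 356 (252 and 1149). Over all alternatives the genes called higher ranged from 6 to 1694, 0 to 6 and 1 to 2252 in mRNA (LPS over basal, LPS + DEX over LPS, LPS + DEX over basal), and from 137 to 378, 35 to 414 and 39 to 236 in footprints; those lower in TE ranged from 502 to 1653, 0 to 55 and 356 to 1487. The planned count test and its variant were not run; limma-voom on the recovered reads was run in their place. In basal cells, footprints of Nfkbid and Nfkbiz had 7 to 10 reads a library, and those of Tnfaip3 15 and 29. The mRNA of Nfkbiz and that of Tnfaip3 had 14 and 25 reads there. These low counts limit the precision of the folds and ratios that rest on them.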
